A study of Arabidopsis thaliana with 6 samples.

Results

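The UGT genes of Arabidopsis were followed in a comparison of the Columbia-0 wild type with the cax1cax3 double mutant. Members were the probe sets that the array's annotation pairs with 1 gene whose symbol begins with UGT and a family number in digits. They numbered 47 probe sets for 47 genes, of 13350 genes named on the array and 22746 probe sets tested, so no choice between probe sets of a gene was needed. The members belong to 11 families, numbered 71 to 74, 76, 78, 80, 84, 85, 87 and 88.

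Both genotypes were in the Columbia-0 background, were sampled as whole plants and were labelled 40 days old. CAX1 and CAX3, the genes mutated together in cax1cax3, encode cation/H+ exchangers that load calcium into the vacuole; the labels do not give the alleles, and the annotation table used here pairs no probe set with either gene, so their levels were not analysed here. All plants stood 10 days on medium with 0.5% sucrose and then 3 weeks in soil, at 22 °C with 16 hours of light. The mutants were by then beginning to show necrotic lesions. Together these periods are shorter than the labelled age of 40 days, and the difference is not accounted for here. Each genotype had 3 arrays, numbered 1 to 3. Whether each array stands for plants raised apart is not given in the labels. The p-values cover only the spread among these arrays, part of which may be technical.

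UGTs are enzymes that take an activated sugar, mostly UDP-glucose, and attach it to a small molecule. Their acceptors in Arabidopsis include hormones (abscisic acid, auxin, cytokinins, salicylate), flavonoids, lignin precursors, glucosinolate intermediates, sterols and foreign compounds. The attached sugar generally makes the acceptor more soluble, often ends its activity and prepares it for storage in the vacuole. Family numbers follow sequence similarity, so members of a family need not share an acceptor.

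Values are log2 expression per probe set, and every change is the mutant mean minus the wild-type mean on that scale. A gene is called higher or lower where limma's moderated test over all 6 arrays gave a Benjamini-Hochberg adjusted p under 0.05 over all 22746 probe sets. Array medians ran from 7.03 to 7.08. A level was judged close to background where it lay at or below 4.70, the 95th percentile of the values of 27 bacterial control probe sets, whose median was 4.04. Array values of different probe sets cannot be ranked against each other, so levels are compared only within a gene. The mean over the 6 arrays lay above the bacterial range for 41 of the 47 members (87.2%) and for 79.6% of all probe sets. Same-numbered arrays of both genotypes departed from their means in a like way, so a second fit took the number as a block. Its results are given where they changed a call.

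Several organ markers moved with the genotype, but the markers were listed with earlier results of these data known. The summed log2 level of the 2 seed and silique markers measured of 6 listed was 14.2 to 16.9 in the wild type and 9.82 to 10.6 in the mutant, and that of the 5 anther and pollen markers measured of 6 was 27.3 to 29.1 and 22.7 to 22.9. For 3 of 6 leaf markers the sums were 36.2 to 37.2 and 34.6 to 35.1, and for 2 of 5 root markers 9.85 to 10.0 and 9.87 to 10.3. Calls as lower were made for both seed and silique markers, 3 anther and pollen markers and 1 leaf marker. Of all probe sets, 3.28% were called lower. None of 5 flower organ markers was paired with a probe set in the annotation table used here. The means of the anther and pollen marker AMS, 4.63 and 4.31, lay within the bacterial range in both genotypes. The mutant means of SHT (4.53) and RALFL25, of the same group, also lay within that range. Background therefore limits what the anther and pollen sums and the changes of these genes can show. The changes of the leaf markers were -1.18 for LHCB4.3, of a light-harvesting protein, -0.42 for PRK, phosphoribulokinase, and -0.18 for RCA, Rubisco activase. The means of the root hair expansin genes EXPA7 and EXPA18 lay between 4.92 and 5.19, little above the bacterial range. The part of organ shares in the changes of the UGT genes was not tested, and in whole plants fewer cells of a type and less RNA per cell cannot be told apart.

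Of the 47 UGT genes, UGT87A2, UGT73D1 and UGT71B6 were called higher in the mutant and UGT84A3 was called lower. These 4 calls are 8.51% of the members, where 5.62% of all probe sets were called, 2.34% as higher and 3.28% as lower. With the replicate number as a block 9 members were called, 5 higher and 4 lower, which is 19.1% of them against 9.78% of all probe sets (4.63% higher and 5.15% lower). At an unadjusted p under 0.05, 13 members (27.7%) stood beside 19.5% of all probe sets. The genes added by the block were UGT72E1 and UGT76C2, higher, and UGT71B1, UGT76E11 and UGT78D1, lower. All 4 genes called without the block were among the 9.

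As a whole the UGT genes did not lean one way. Changes were positive for 25 genes and negative for 22, with a median of 0.04, beside a median of 0.01 over all probe sets. They ran from -1.21 for UGT84A3 to 2.09 for UGT87A2. For 26 genes the change was smaller than 0.25 log2 units in either direction. The median absolute change was 0.21, beside 0.15 over all probe sets. A change of 0.5 log2 units or more was seen for 11 genes, or 23.4%, against 13.8% of all probe sets. The arrays of the genotypes did not overlap for 14 genes, or 29.8%, of which 8 were higher and 6 lower, and for 24.6% of all probe sets (11.6% higher and 13% lower). For 37 genes the range among the 3 arrays of a genotype, the larger of both genotypes' ranges, exceeded the size of the change. The share of all probe sets for which this held is not given here.

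**Figure D1:**
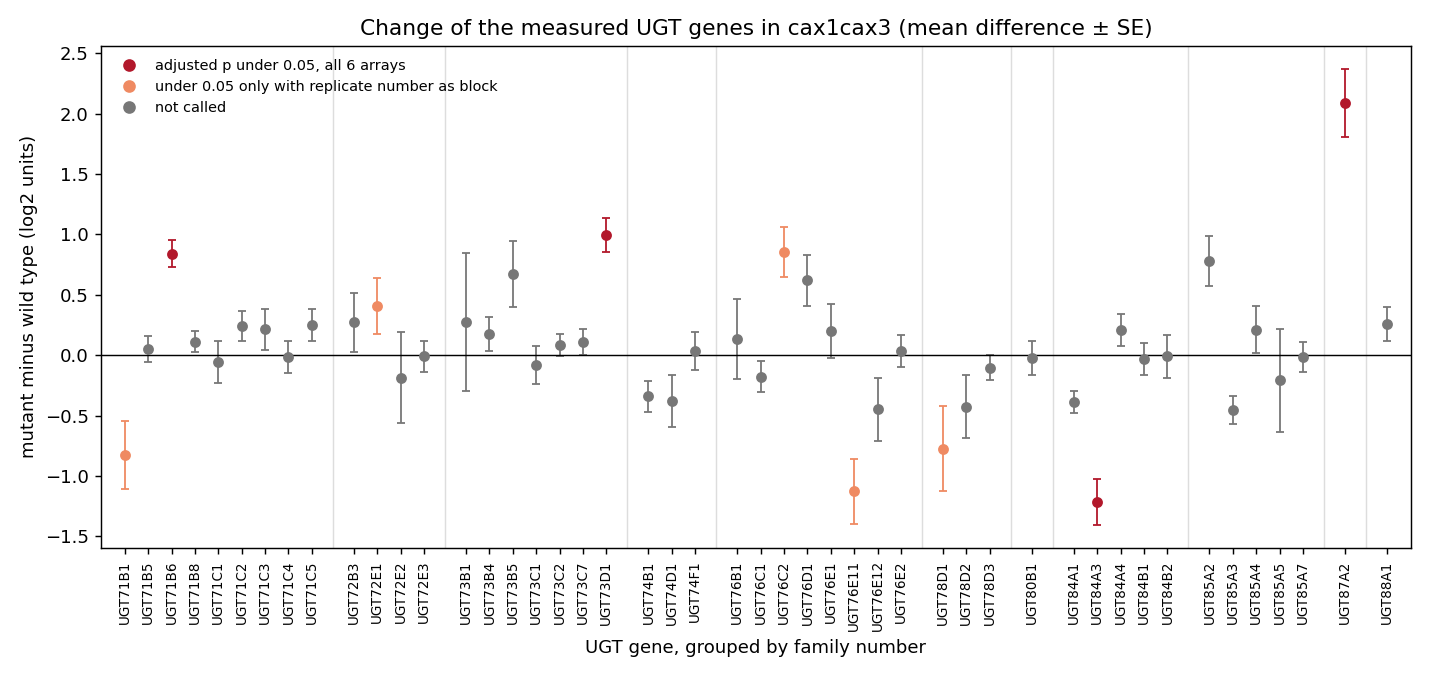
Change of each of the 47 UGT genes (mutant mean minus wild-type mean, log2 units, vertical axis), ordered by family number along the horizontal axis. Points are differences of means over 3 arrays each and bars are standard errors from limma; UGT87A2 stands highest at 2.09 and UGT84A3 lowest at -1.21, and 26 genes lie within 0.25 of the zero line.

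UGT87A2 had the largest change of the members. The gene is known for a role in flowering time and in the response to salt and drought. Its wild-type arrays read 7.88, 7.22 and 8.25 and its mutant arrays 9.60, 9.79 and 10.22. Every mutant array lay above every wild-type array, with the lowest mutant value well clear of the highest wild-type value. The level was 4.25-fold higher in the mutant (2.09 ± 0.28, log2 change ± SE, n = 3 per genotype; limma adjusted p = 0.0120, and 0.0110 with the block). Within array numbers 1, 2 and 3 the differences were 1.73, 2.57 and 1.97. Without mutant array 2 the call was lost (adjusted p = 0.0635), although the change was then 2.13, and in the 5 other fits without 1 array it was kept.

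In family 71, with 9 members, UGT71B6 rose and no member fell in the fit without the block. UGT71B6 glucosylates abscisic acid. Its wild-type arrays read 4.72, 4.51 and 4.55, a mean of 4.59 ± 0.11 (SD, n = 3) at the level of the bacterial probe sets, and its mutant arrays 5.44, 5.55 and 5.30. The genotypes did not overlap, and the difference within numbers was 0.72, 1.05 and 0.76. The change was 0.84 ± 0.11 (limma adjusted p = 0.0112, and 0.0171 with the block). With values at or below 4.70 set to that limit, the level was at least 1.66-fold higher in the mutant. Without mutant array 2 or wild-type array 2 the call was lost (adjusted p = 0.0595 and 0.0636).

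Other abscisic acid enzymes of the family were not called. UGT71C5, which makes the glucose ester of abscisic acid, read 8.08, 8.02 and 7.97 in the wild type and 8.53, 8.13 and 8.16 in the mutant. The mutant arrays lay above the wild-type ones by a narrow margin, with a change of 0.25 ± 0.13 (limma adjusted p = 0.369). UGT71B8, which also accepts abscisic acid, had wild-type values of 4.64, 4.59 and 4.60 and mutant values of 4.77, 4.65 and 4.76. These values lie at or just above the bacterial range, and the change of 0.11 was not called (adjusted p = 0.569).

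UGT71B1 was called lower in the mutant with the block and not without it. Its wild-type arrays read 8.64, 8.58 and 9.56 and its mutant arrays 8.04, 7.88 and 8.38. The genotypes did not overlap, and both arrays numbered 3 were the highest of their genotype. The change was -0.83 ± 0.28 (limma adjusted p = 0.164) and became a call with the block (adjusted p = 0.0295). Without wild-type array 3 it was -0.51, and a fit that weights each array by its estimated reliability (array weights) gave no call (adjusted p = 0.0720). The remaining members of family 71 stayed between -0.06 and 0.24. They were UGT71B5, UGT71C1, which glucosylates lignans and other phenylpropanoids, UGT71C2, UGT71C3, which glucosylates methyl salicylate, and UGT71C4. UGT71C3 changed by 0.21 ± 0.17 (adjusted p = 0.576).

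Family 72 holds the enzymes that glucosylate monolignols, the building blocks of lignin, and their aldehydes. None of its 4 measured members was called without the block, and UGT72E1 was called higher with it. UGT72E1, which acts on coniferyl and sinapyl aldehyde, read 9.05, 8.85 and 8.41 in the wild type and 9.45, 9.30 and 8.77 in the mutant. The groups overlapped, since both arrays numbered 3 were low, but the mutant array was higher within each number, by 0.40, 0.46 and 0.37. The change of 0.41 ± 0.23 had a limma adjusted p of 0.400, and of 0.0480 with the block. It was 0.23 with wild-type array 3 left out and 0.61 with mutant array 3 left out, and array weights gave no call (adjusted p = 0.139).

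UGT72E2, which makes coniferin and syringin from the monolignols, showed the same low values on the arrays numbered 3. It read 7.59, 7.79 and 6.78 in the wild type and 7.57, 7.57 and 6.47 in the mutant, a change of -0.19 ± 0.38 (limma adjusted p = 0.856). The spread within each genotype was far larger than the difference between them. UGT72E3, which acts on sinapyl alcohol, had a change of -0.01 ± 0.13 at levels between 4.79 and 5.16. UGT72B3 changed by 0.27 ± 0.24, and its lowest value, 5.19 on wild-type array 1, stood apart from the other 5 arrays at 5.93 to 6.10.

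In family 73 UGT73D1 rose, no member fell, and 6 of 7 members had positive changes. Only UGT73D1 was called, with or without the block. Both means of UGT73C2 and the wild-type mean of UGT73B4 (4.64) lay within the bacterial range, so the count of positive changes shows little. UGT73D1 read 4.70, 4.75 and 4.57 in the wild type and 5.42, 5.69 and 5.90 in the mutant. All mutant arrays were above all wild-type arrays, whose mean of 4.68 lay within the bacterial range. The change was 1.00 ± 0.14 (limma adjusted p = 0.0138, and 0.0211 with the block), and at least 1.94-fold with values at or below 4.70 set to that limit. The call was lost without mutant array 2 (adjusted p = 0.0747), wild-type array 1 (0.0515) or wild-type array 2 (0.0617), with changes of 0.99 to 1.03 in those fits.

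UGT73B5, known for a part in resistance to avirulent Pseudomonas and in redox balance, depended on 1 array. It read 5.70, 5.91 and 5.43 in the wild type and 6.74, 6.58 and 5.74 in the mutant, where array 3 was low and overlapped the wild type. The change of 0.67 ± 0.28 was not called (limma adjusted p = 0.244, and 0.0644 with the block). Without mutant array 3 the change was 0.98 and was called (adjusted p = 0.0252), and it was also called with array weights (0.78, adjusted p = 0.0426). The 5 other fits without 1 array did not call UGT73B5 (limma adjusted p = 0.334 to 0.502). UGT73B4, which can glucosylate the explosive TNT, read 4.76, 4.57 and 4.58 and then 5.08, 4.72 and 4.65 in the mutant. Its change of 0.18 was not called (adjusted p = 0.564).

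UGT73B1 had the widest spread of the members within a genotype. Its arrays read 7.86, 6.79 and 6.29 in the wild type and 8.14, 7.45 and 6.18 in the mutant. Array 3 was lowest in both genotypes, and the ranges of 1.56 and 1.95 exceed the change of 0.28 ± 0.57 several times over (limma adjusted p = 0.858). The means of UGT73C1 and UGT73C2 lay within the bacterial range in both genotypes. UGT73C7, which glucosylates hydroxycinnamic acids, changed by 0.11 ± 0.11 at levels of 4.71 to 5.05.

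**Figure D2:**
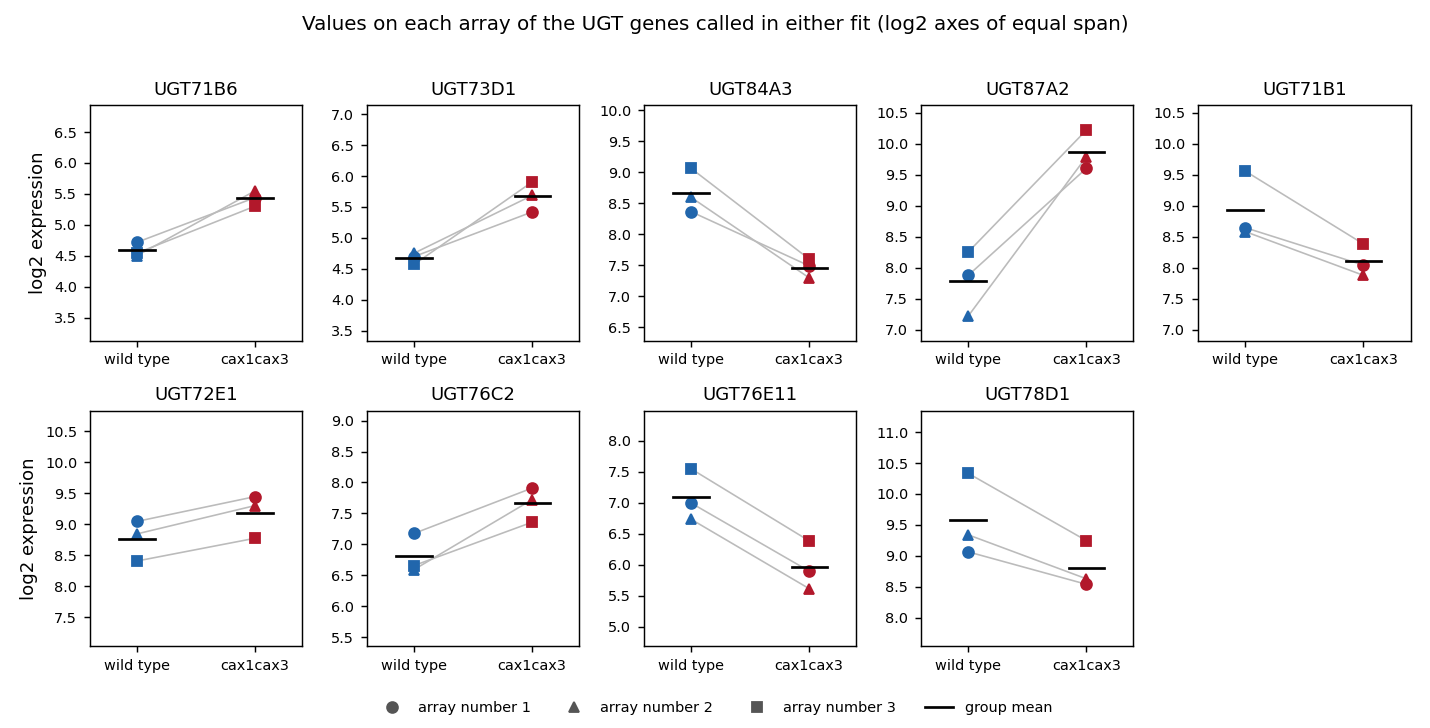
Log2 expression on each array (vertical axis, of equal span in every panel) of the 9 UGT genes called with or without the replicate block; the first 4 panels are those called without it. Symbols mark the array number, grey lines join arrays of the same number and black bars are means of 3 arrays. In all 9 panels the 3 lines run the same way, which choosing genes by these calls favours.

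Family 74 had 3 measured members, and none was called. UGT74B1, which transfers glucose to the sulfur of the thiohydroximate in glucosinolate synthesis, read 10.15, 10.05 and 10.38 in the wild type and 9.82, 9.74 and 10.00 in the mutant. The genotypes did not overlap and the differences within numbers were -0.33, -0.31 and -0.38, but the change of -0.34 ± 0.13 was not called (limma adjusted p = 0.204, and 0.0700 with the block). UGT74D1, an auxin glucosyltransferase, read 6.95, 6.61 and 7.47 and then 6.75, 6.57 and 6.58 in the mutant. The groups overlapped, and of the change of -0.38 ± 0.21 (adjusted p = 0.403) most came from number 3, where the difference was -0.89.

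UGT74F1, which makes the glucoside of salicylate, showed little difference. UGT74F2 of the same group was not paired with a probe set in the annotation table used here. UGT74F1 read 5.29, 5.07 and 5.25 in the wild type and 5.13, 5.04 and 5.55 in the mutant, a change of 0.04 ± 0.16 (limma adjusted p = 0.940). The highest value was mutant array 3, and the sign of the difference was not the same in the 3 numbers.

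Among the 8 members of family 76, UGT76C2 and UGT76E11 had the largest changes, in opposite directions. Without the block neither was called over all 6 equally weighted arrays, and with the block both were. UGT76C2 attaches glucose to a ring nitrogen of cytokinins. It read 7.18, 6.59 and 6.66 in the wild type and 7.91, 7.72 and 7.36 in the mutant, with no overlap. The change was 0.85 ± 0.21 (1.81-fold, limma adjusted p = 0.0662, and 0.0211 with the block). It was also called with array weights (adjusted p = 0.0187) and, at 1.01, without mutant array 3 (adjusted p = 0.0391). In the 5 other fits without 1 array UGT76C2 was not called (limma adjusted p = 0.0541 to 0.217). UGT76C1, which catalyses the same reaction, read 7.32, 7.26 and 7.28 and then 7.33, 7.09 and 6.91 in the mutant. Its change of -0.18 ± 0.13 was not called (adjusted p = 0.524).

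UGT76E11, a flavonoid glucosyltransferase, read 7.00, 6.73 and 7.55 in the wild type and 5.90, 5.61 and 6.39 in the mutant. Its arrays did not overlap, and the differences within numbers were nearly equal at -1.10, -1.12 and -1.16. The change was -1.13 ± 0.27 (limma adjusted p = 0.0627, and 0.0105 with the block). Array weights also gave a call (adjusted p = 0.0176), as did leaving out mutant array 3, with a change of -1.34 (adjusted p = 0.0352). The 5 other fits without 1 array gave no call (limma adjusted p = 0.0999 to 0.206). UGT76E12 read 4.69, 4.80 and 5.53 and then 4.46, 4.29 and 4.92 in the mutant, with negative differences within each number and a change of -0.45 ± 0.26 (adjusted p = 0.421, and 0.0684 with the block). The mutant mean of 4.56 lay in the bacterial range. UGT76E1, which glucosylates hydroxylated jasmonate, and UGT76E2 changed by 0.20 and 0.03, and the means of UGT76E1, 4.34 and 4.54, lay within the bacterial range, with mutant array 3 above it at 5.04.

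The members of the family linked to salicylate were not called. UGT76B1 glucosylates isoleucic acid, N-hydroxypipecolic acid and salicylate and restrains defence. It read 6.17, 5.79 and 6.05 in the wild type and 6.78, 6.25 and 5.39 in the mutant, so mutant arrays 1 and 2 were above the wild type and array 3 below it. The change over all arrays was 0.14 ± 0.33 (limma adjusted p = 0.885). UGT76D1, which acts on dihydroxybenzoic acids formed from salicylate, read 5.58, 5.41 and 5.63 and then 5.74, 6.13 and 6.60 in the mutant. The genotypes did not overlap, but the change of 0.62 ± 0.21 was not called (adjusted p = 0.172, and 0.0916 with the block).

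Family 78 holds the enzymes that put the first sugar on flavonols and anthocyanidins, and its 3 members all had negative changes. UGT78D1, the flavonol rhamnosyltransferase, read 9.07, 9.34 and 10.33 in the wild type and 8.54, 8.63 and 9.25 in the mutant. Array 3 was highest in both genotypes, and mutant array 3 reached into the wild-type range. The change was -0.77 ± 0.35 (limma adjusted p = 0.294) and was called lower with the block (adjusted p = 0.0316). It was -0.40 without wild-type array 3 and -1.03 without wild-type array 1, and array weights gave no call (adjusted p = 0.130). UGT78D2, the flavonoid glucosyltransferase, read 8.02, 8.10 and 8.99 and then 8.01, 7.76 and 8.05 in the mutant, with differences within numbers of -0.01, -0.33 and -0.94. It was not called with or without the block (-0.43 ± 0.26, adjusted p = 0.447, and 0.234 with the block). UGT78D3, the flavonol arabinosyltransferase, lay in the bacterial range throughout. UGT80B1, a sterol glucosyltransferase also known as TRANSPARENT TESTA 15, read 8.30, 8.20 and 8.12 and then 8.14, 7.96 and 8.44 in the mutant, a change of -0.03 ± 0.14 (adjusted p = 0.953).

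**Figure D3:**
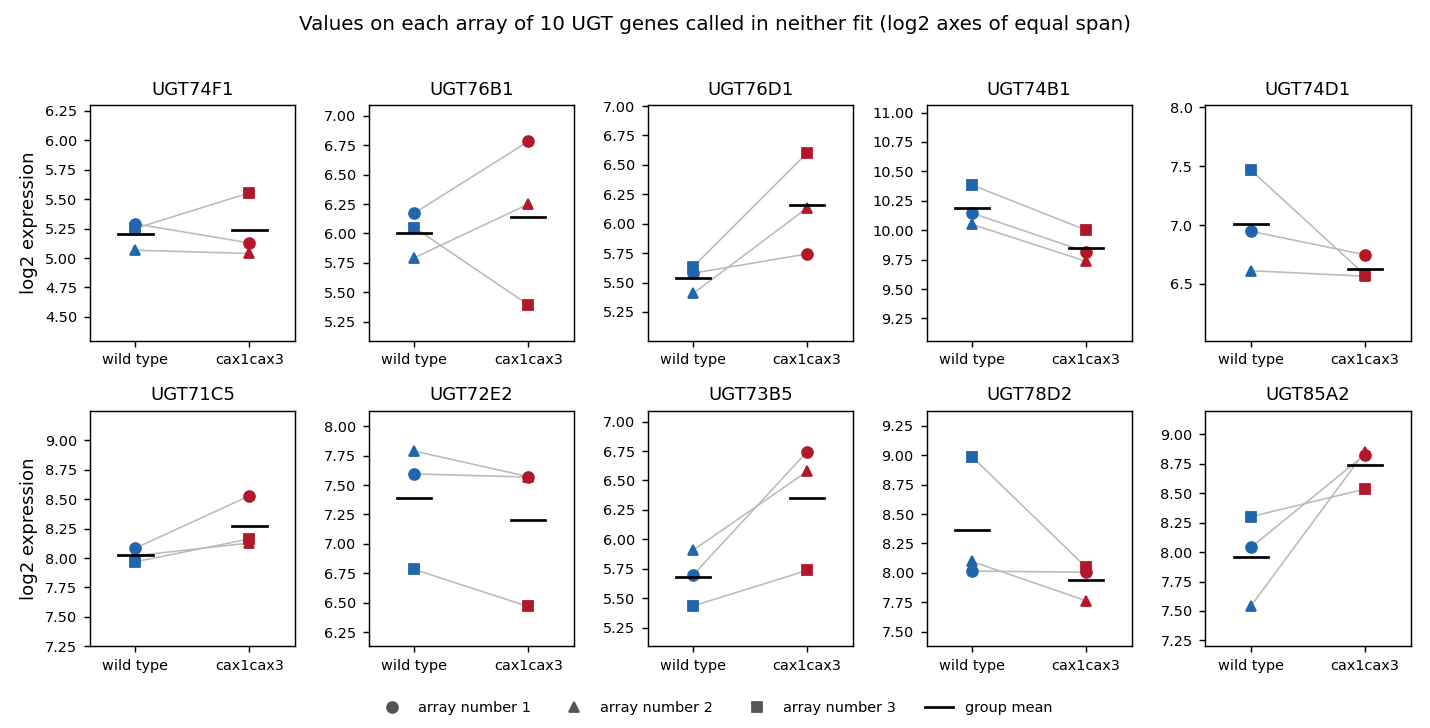
Log2 expression on each array (vertical axis, of equal span in every panel) of 10 UGT genes that were called neither with nor without the replicate block. Symbols mark the array number, grey lines join arrays of the same number and black bars are means of 3 arrays; for UGT76B1 the lines of numbers 1 and 2 rise and that of number 3 falls, and for UGT74B1 all 3 fall by 0.31 to 0.38.

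In family 84 UGT84A3 fell. Enzymes of the UGT84A group form glucose esters of hydroxycinnamic acids such as sinapate. UGT84A3 read 8.36, 8.59 and 9.06 in the wild type and 7.49, 7.29 and 7.60 in the mutant, and the lowest wild-type array was clear of the highest mutant array. The change was -1.21 ± 0.19 (2.32-fold lower, limma adjusted p = 0.0187, and 0.0149 with the block). The call was lost without mutant array 1 (adjusted p = 0.0564), mutant array 2 (0.0923) or wild-type array 2 (0.0751), with changes of -1.23, -1.13 and -1.25.

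UGT84A1 had little spread, with wild-type arrays at 5.67, 5.76 and 5.81 and mutant arrays at 5.39, 5.31 and 5.37. The genotypes did not overlap, and the change of -0.39 ± 0.09 narrowly missed the threshold in both fits (limma adjusted p = 0.0617, and 0.0625 with the block), while array weights gave a call (adjusted p = 0.0238). UGT84A4 read 5.52, 5.63 and 5.81 and then 5.83, 5.69 and 6.06 in the mutant, a change of 0.21 ± 0.13 (adjusted p = 0.464). UGT84B1, which makes the glucose ester of auxin, and UGT84B2 changed by -0.03 and -0.01 at levels within or close to the bacterial range.

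None of the 5 members of family 85 was called with or without the block, and array weights called UGT85A2 higher and UGT85A3 lower (adjusted p = 0.0236 and 0.0427). UGT85A2 read 8.04, 7.54 and 8.30 in the wild type and 8.83, 8.85 and 8.54 in the mutant, with no overlap (0.78 ± 0.21, limma adjusted p = 0.0850). UGT85A3 read 5.94, 5.97 and 6.26 and then 5.56, 5.63 and 5.62 in the mutant, also without overlap and in the other direction (-0.46 ± 0.11, adjusted p = 0.0747). UGT85A5 was split by mutant array 3, which read 6.17 beside 7.64 and 7.83 on the other mutant arrays and 7.15 to 7.56 in the wild type. UGT85A4 and UGT85A7 changed by 0.21 and -0.01. In family 88 UGT88A1 read 10.43, 10.38 and 10.03 in the wild type and 10.51, 10.43 and 10.69 in the mutant, a change of 0.26 ± 0.14 (adjusted p = 0.381).

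Many UGT genes lie side by side in the genome. In the RefSeq gene table of assembly TAIR10.1, used here only for gene order, 30 of the 47 members fell into 13 runs in which neighbours were adjacent or had 1 other protein-coding gene between them. These runs gave 17 neighbouring pairs. For each pair the within-array difference between both genes was compared between the genotypes, which asks whether both changed alike. The genotypes did not overlap for 8 pairs of 17, beside 28.7% of 8709 pairs of neighbouring named genes over the whole array. Pairs can share a gene, as UGT84A3 is paired with both UGT84A1 and UGT84A4, so they are not separate observations. UGT84A3, UGT73D1 and UGT71B6, called on their own, are among the genes of the 8 pairs, so the count partly repeats those calls. With 3 arrays against 3 the two-sided exact permutation test cannot give a p below 0.10, which all 8 pairs reached, and 0.2125 after Benjamini-Hochberg adjustment over the 17 pairs.

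The neighbours AT4G15480, AT4G15490 and AT4G15500 are UGT84A1, UGT84A3 and UGT84A4. Their changes were -0.39, -1.21 and 0.21, and the change of UGT84A3 minus that of UGT84A4 was -1.42 log2 units. UGT76C2 and UGT76C1 differed by 1.03 in their changes, with the former positive and the latter negative. UGT73D1 changed by 0.89 more than its neighbour UGT73C7, and UGT71B6 by 0.73 more than UGT71B8. UGT76E12 and UGT76E11 were both lower in mean, and their changes differed by 0.68. The wild-type means of UGT71B6, UGT71B8 and UGT73D1 and the mutant mean of UGT76E12 lay within the bacterial range, so background limits what the differences for these 3 pairs can show. In the run UGT85A7, UGT85A2, UGT85A5 and UGT85A3 the changes were -0.01, 0.78, -0.21 and -0.46. All 47 probe sets carry the suffix that Affymetrix uses for sets designed against a single transcript, and cross-hybridisation between related genes was not tested.

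**Figure D4:**
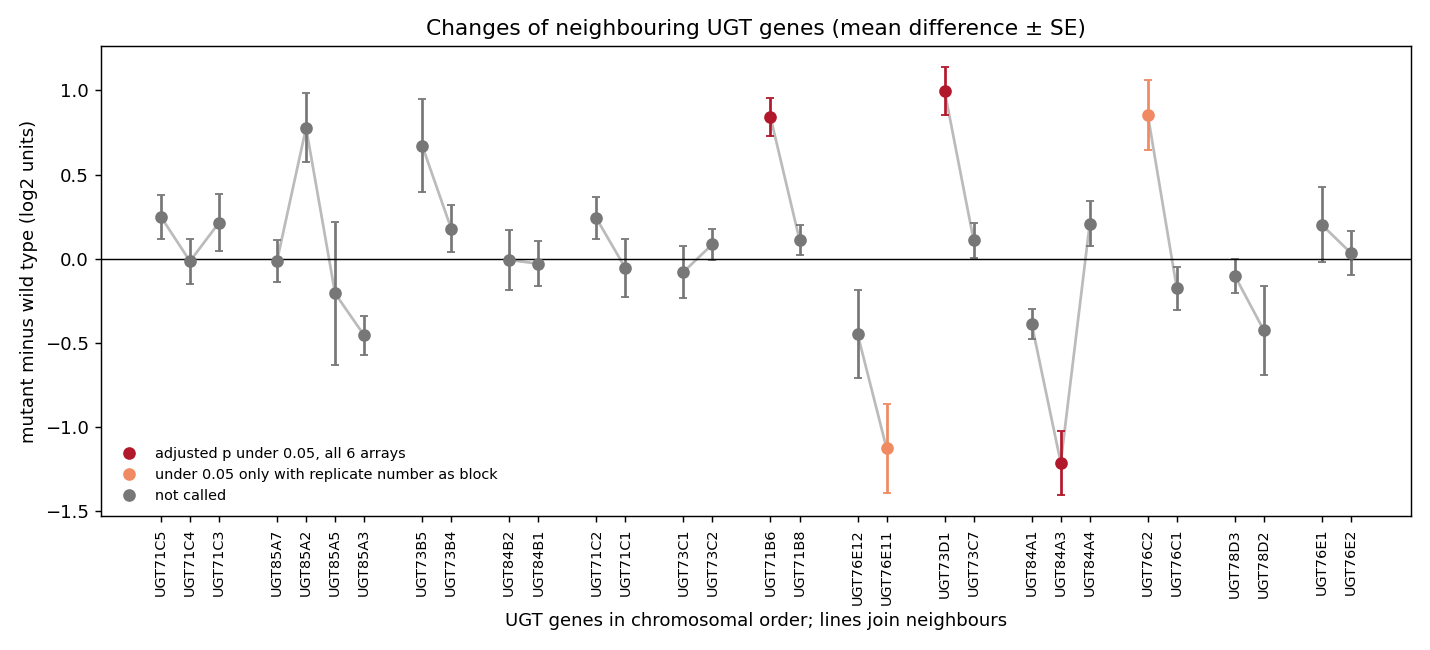
Change of the 30 UGT genes that have a UGT neighbour (mutant mean minus wild-type mean, log2 units, vertical axis), in chromosomal order along the horizontal axis with lines joining neighbours. Points are differences of means over 3 arrays each and bars are limma standard errors; UGT84A3 at -1.21 stands between UGT84A1 at -0.39 and UGT84A4 at 0.21.

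The arrays numbered 3 differed from the others for many members in both genotypes. Array 3 held the highest of the 3 values in both genotypes for 14 members, or 29.8% (20.1% of all probe sets), among them UGT78D1, UGT78D2, UGT76E11, UGT76E12, UGT71B1 and UGT87A2. It held the lowest value in both for 6 members, or 12.8% (19.3% of all probe sets), among them UGT72E1, UGT72E2, UGT73B1 and UGT73B5. UGT78D1 was 1.13 higher on wild-type array 3 than on the mean of the other wild-type arrays and 0.66 higher on mutant array 3, and for UGT73B1 these differences were -1.03 and -1.61. What the numbers stand for is not given, and their part in the changes was tested only through the block.

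Few listed genes of the pathways that supply or use UGT products were paired with a probe set in the annotation table used here. DFR, dihydroflavonol reductase of anthocyanin synthesis, was the measured gene of 21 symbols listed for flavonoids. It read 6.63, 6.75 and 8.70 in the wild type and 5.70, 5.43 and 7.48 in the mutant, highest on array 3 in both genotypes as for UGT78D1, and was called lower with the block but not without it (-1.16 ± 0.72, limma adjusted p = 0.454, and 0.0119 with the block). Leaving out 1 array at a time, chosen for the listed genes after seeing the data, gave changes from -0.49 (wild-type array 3 left out) to -1.79 (mutant array 3 left out). None of 3 genes of monolignol synthesis was called in either fit, and the largest change was that of HCT (-0.41, adjusted p = 0.0748). None was called among 2 genes of glucosinolate synthesis (GSTU20, -0.41), 5 of hormone catabolism (WES1, 1.06, adjusted p = 0.0850) and 13 glutathione S-transferases (GSTU26, -0.57), or for BSMT1, the measured gene of the salicylate list (-1.18, adjusted p = 0.493). The change of BSMT1 rested on wild-type array 3, which read 8.09, and was -0.22 without it.

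Beta-glucosidases, some of which split the glucosides that UGTs make, were measured for 20 BGLU genes with a median change of -0.03. Positive changes were seen for 8 of them, none called, and 2 of the 20 were called lower, where 3.28% of all probe sets were. BGLU45, which hydrolyses monolignol glucosides, read 8.52, 8.97 and 8.67 in the wild type and 7.86, 7.92 and 7.15 in the mutant, without overlap (-1.08 ± 0.23, limma adjusted p = 0.0475). BGLU40 went from 9.10 ± 0.13 to 8.27 ± 0.22 (SD, n = 3; change of -0.83, adjusted p = 0.0230). BGLU46, which shares the activity of BGLU45, had a change of 0.55 ± 0.23 and was not called (adjusted p = 0.251).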

How the data were processed

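Total RNA from whole plants was hybridised to Affymetrix arrays, 1 per sample. The authors deposited log2 expression values per probe set. The submitters' processing notes list GCOS 1.1.2 and RMA but no role or order for them, settings and filters are not given in the sources used here, and the log2 scale was read from the values, 3.35 to 14.5. RMA is known to shrink differences of dim probe sets. No further normalization was applied. Of 22810 probe sets, 64 Affymetrix controls were left out of the tests.

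Genes came from the platform annotation, which can be old, and 3 probe sets shared by a UGT and another gene were left out. Changes were tested with limma 3.58.1 (lmFit, eBayes) in R 4.3.3 with genotype as the sole term and with Benjamini-Hochberg adjustment. The same fit was also run on simulated arrays with independent errors. Such arrays lack the shared deviations of same-numbered arrays, so that run cannot show how the fit behaves under them. The number of arrays limits the precision. Alternatives were the replicate block, quantile normalization, leaving out dim probe sets, array weights, a trend and robust prior, averaged probe sets and each array left out. Same-numbered arrays correlated in their deviations from the genotype means (0.433, 0.292 and 0.471), so the block fit took the numbers as pairs. Wild-type array 1 with mutant array 2 gave 0.116, and wild-type array 2 with mutant array 1 gave 0.120. Unlike-numbered pairs with an array 3 gave -0.41 to -0.26. These values set the arrays numbered 3 apart more than they separate numbers 1 and 2. They come from the same data as the fits. Array values were written out for called members, for the largest change in each family and for members with a known acceptor, and further members were added after their values were seen. Members, lists and organ markers were chosen with earlier results of these data known. Of 8 lists, that of ABC and multidrug transporters had 0 named genes.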

Additional observations from a re-analysis of the deposited data

How the results depend on the processing

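The 3 higher and 1 lower calls stayed at 3 and 1 with quantile normalization and with a trend and robust prior. Averaging the probe sets of a gene also gave 3 and 1. Each member has 1 probe set, so averaging could not alter its values and is no check of these calls. The replicate block gave 5 and 4 and array weights 6 and 4, in part different genes: array weights added UGT73B5, UGT76C2, UGT85A2, UGT76E11, UGT84A1 and UGT85A3 and did not call the block's UGT71B1, UGT72E1 and UGT78D1. With the third of probe sets of lowest mean left out, 1 higher call remained, because UGT71B6 and UGT73D1 were among those left out. Without 1 array the higher calls ran from 0 (without mutant array 2) to 5 (without mutant array 3) and the lower from 0 to 2; these fits have fewer arrays. The median change stayed between 0.01 and 0.09. None of the 4 members called in the main fit changed sign. Their genotypes did not overlap, so leaving out 1 array could not reverse the sign. The block does not alter the size of a change. Uncalled members with small changes did: array weights gave UGT71C1 0.073, UGT74F1 -0.053, UGT76E2 -0.050 and UGT85A5 0.13, and quantile normalization gave UGT85A7 0.0059; the cause was not tested. Without 1 array, changes that crossed zero ran from -0.013 to 0.13 for UGT71B5, -0.19 to 0.13 for UGT71C1, -0.15 to 0.075 for UGT71C4, -0.022 to 0.42 for UGT72B3, -0.49 to 0.18 for UGT72E2, -0.094 to 0.092 for UGT72E3, -0.16 to 0.82 for UGT73B1, -0.20 to 0.072 for UGT73C1, -0.12 to 0.14 for UGT74F1, -0.18 to 0.51 for UGT76B1, -0.053 to 0.33 for UGT76E1, -0.063 to 0.15 for UGT76E2, -0.15 to 0.083 for UGT80B1, -0.12 to 0.068 for UGT84B1, -0.15 to 0.13 for UGT84B2, -0.52 to 0.32 for UGT85A5 and -0.10 to 0.042 for UGT85A7.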

Other observations

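The RefSeq table holds 64 genes with a UGT number among symbol or synonyms, of which 47 are the members described above. Another 9 were not paired with a probe set in the annotation table used, among them UGT74F2, UGT84A2, UGT85A1 and UGT73C6. A further 4 have a probe set under another symbol. GT72B1 (UGT72B1), which glucosylates chlorinated phenols and monolignol precursors, read 10.29, 10.59 and 11.30 in the wild type and 9.71, 9.63 and 9.93 in the mutant, with no overlap. Its change was -0.97 ± 0.25 (limma adjusted p = 0.0823, and 0.0308 with the replicate block). UF3GT (UGT79B1), which adds xylose to anthocyanins, read 6.27, 6.13 and 8.19 and then 6.33, 5.83 and 7.14 in the mutant, highest on array 3 in both genotypes (-0.43 ± 0.60, limma adjusted p = 0.771). SGT (UGT80A2), a sterol glucosyltransferase, changed by -0.20 ± 0.13 (limma adjusted p = 0.475) and AT5G54010 (UGT79B6) by -0.11 ± 0.11 (limma adjusted p = 0.644).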
